A study of Mus musculus with 479 samples.

Results

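Wild-type livers of 1 mouse line were ordered by their level of Lepr, the mRNA of the leptin receptor, and the 10 libraries highest in Lepr were set against the 10 lowest. These 20 libraries were chosen by Lepr itself, out of 30 wild-type livers of the Dchs1 line, 119 liver libraries and 479 libraries of the whole series. The series holds bulk polyA-selected RNA-seq of mouse tissues from a Dchs1 line and a Fat4 line, genes that code for large cadherins, each with libraries labelled Het for that gene and libraries labelled WT. The groups were, first, Dchs1 WT livers high in Lepr (n = 10) and low in Lepr (n = 10), then Fat4 WT livers high (n = 10) and low (n = 10), used as a check. Dchs1 Het and Fat4 Het livers, split in the same way (n = 10 high and 10 low in each), were read as further libraries that played no part in the choice. The labels give no strain, age, diet or treatment. They do not say that each library is a separate mouse, and p-values therefore cover only the spread among these libraries, which may be technical in part. Reads of the Y-linked gene Ddx3y reached at least 39.2 CPM (counts scaled to the library total) and those of Xist at most 0.653 CPM in all 119 livers.

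The leptin receptor is a cytokine receptor that binds leptin, the hormone secreted by fat cells in proportion to fat stores. Its long form signals through the kinase JAK2 and the transcription factor STAT3, above all in the hypothalamus, where it restrains food intake. The liver carries mostly short forms and is a source of the soluble receptor that binds leptin in blood, and in mice the liver's Lepr mRNA is known to rise on fasting. The deposited tables give 1 value per gene, so the forms of Lepr were not separated here.

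Lepr lies on the forward strand of chromosome 4 (chr4:101717137-101815352, GRCm38.p6), and its neighbour Leprot, which codes for a small endosomal protein that affects how many leptin receptors reach the cell surface, ends before it begins (chr4:101647783-101659364). The promoters shown are those of Lepr, whose level chose the libraries, of 4 genes of cholesterol synthesis that were lower in high-Lepr livers, and of Btg2, an early response gene that was higher. Each runs 5′ to 3′ from 250 bases before to 50 bases after the transcription start given by RefSeq (GRCm38.p6). Capitals mark matches on either strand to TCACNCCAC, a core of the sterol response element (SRE), to TGACGTCA, the cAMP response element (CRE), or to CCAAT, the box bound by NF-Y.
Lepr promoter 1, chr4:101717157-101717456, forward strand: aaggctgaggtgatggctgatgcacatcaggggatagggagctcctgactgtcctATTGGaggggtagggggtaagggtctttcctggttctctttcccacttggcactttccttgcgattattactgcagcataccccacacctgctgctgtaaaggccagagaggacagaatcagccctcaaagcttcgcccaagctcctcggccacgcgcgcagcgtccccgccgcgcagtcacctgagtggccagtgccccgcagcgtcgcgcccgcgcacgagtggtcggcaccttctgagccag
Lepr promoter 2, chr4:101717656-101717955, forward strand: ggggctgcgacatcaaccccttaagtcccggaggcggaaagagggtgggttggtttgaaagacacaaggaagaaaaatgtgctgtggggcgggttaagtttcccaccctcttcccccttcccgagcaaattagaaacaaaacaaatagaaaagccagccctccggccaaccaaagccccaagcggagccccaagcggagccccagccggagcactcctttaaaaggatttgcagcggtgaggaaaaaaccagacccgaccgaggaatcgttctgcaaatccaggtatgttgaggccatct
Hmgcs1 promoter, chr13:119690101-119690400, forward strand: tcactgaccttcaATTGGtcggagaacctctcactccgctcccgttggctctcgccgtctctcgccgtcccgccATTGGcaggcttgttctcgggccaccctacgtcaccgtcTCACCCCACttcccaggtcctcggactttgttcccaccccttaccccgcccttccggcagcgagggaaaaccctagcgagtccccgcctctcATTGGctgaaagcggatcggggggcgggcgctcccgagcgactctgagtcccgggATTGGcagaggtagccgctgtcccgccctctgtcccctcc
Cyp51 promoter, chr5:4104648-4104947, reverse strand: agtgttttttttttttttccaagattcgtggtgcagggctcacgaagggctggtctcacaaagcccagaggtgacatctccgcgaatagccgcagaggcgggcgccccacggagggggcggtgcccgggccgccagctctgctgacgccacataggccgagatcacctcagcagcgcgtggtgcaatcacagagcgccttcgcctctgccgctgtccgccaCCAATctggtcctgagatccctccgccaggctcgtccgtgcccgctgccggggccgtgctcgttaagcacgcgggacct
Insig1 promoter, chr5:28071162-28071461, forward strand: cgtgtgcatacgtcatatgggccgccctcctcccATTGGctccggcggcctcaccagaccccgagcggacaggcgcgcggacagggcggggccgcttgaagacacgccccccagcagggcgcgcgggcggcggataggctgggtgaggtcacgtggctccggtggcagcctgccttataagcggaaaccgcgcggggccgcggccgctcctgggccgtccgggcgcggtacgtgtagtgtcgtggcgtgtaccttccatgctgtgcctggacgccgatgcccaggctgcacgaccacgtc
Nsdhl promoter, chrX:72918271-72918570, forward strand: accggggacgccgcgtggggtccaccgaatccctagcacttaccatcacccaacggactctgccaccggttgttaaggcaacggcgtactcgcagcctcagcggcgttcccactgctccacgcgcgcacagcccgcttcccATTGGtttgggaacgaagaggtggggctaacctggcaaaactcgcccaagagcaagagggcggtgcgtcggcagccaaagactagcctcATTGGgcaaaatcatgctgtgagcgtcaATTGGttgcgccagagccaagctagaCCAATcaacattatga
Btg2 promoter, chr1:134079106-134079405, reverse strand: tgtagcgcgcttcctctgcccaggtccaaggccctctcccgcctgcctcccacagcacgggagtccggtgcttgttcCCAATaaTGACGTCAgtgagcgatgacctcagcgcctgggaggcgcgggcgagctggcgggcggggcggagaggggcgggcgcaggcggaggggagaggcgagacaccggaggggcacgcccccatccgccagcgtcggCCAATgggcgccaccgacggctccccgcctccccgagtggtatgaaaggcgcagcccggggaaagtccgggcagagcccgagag

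No 2 matches overlapped in these windows. Of all 32851 promoters of that length, 1.24% held TCACNCCAC, 1.79% held TGACGTCA and 37.4% held CCAAT. The Lepr windows held CCAAT once, on the reverse strand, with its first base 195 bases before the start of promoter 1. Both Lepr windows lie within the gene's span given above, so the bases before that span were not searched. Hmgcs1 held TCACNCCAC with its first base 137 bases before the start and 4 CCAAT boxes, Nsdhl held 4 CCAAT boxes, and Cyp51 and Insig1 held 1 each. In Btg2, TGACGTCA began 166 bases before the start, with CCAAT boxes at 173 and 34 bases. The shares that follow are of genes, each counted if any of its promoters held the motif, and 41.1% of all 27025 genes held CCAAT. Of the 24 cholesterol synthesis genes, 16 had a promoter in the table, and 16 of these 16 held CCAAT while 1 held TCACNCCAC. CCAAT was held by 48.1% of the genes called higher and 46.3% of the genes called lower in high-Lepr livers, against 43.1% of all genes tested. For TGACGTCA these shares were 4.73%, 1.84% and 3.485%, and for TCACNCCAC 1.58%, 2.46% and 1.485%.

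Lepr spanned a wide range among Dchs1 WT livers that carry the same genotype label. The 10 libraries high in Lepr had 192.3, 21.04, 12.3, 11.7, 8.47, 7.45, 6.50, 6.20, 5.601 and 5.44 TPM (the authors' values, scaled for transcript length and depth). The 10 libraries low in Lepr had 2.24, 2.23, 1.99, 1.89, 1.86, 1.71, 1.66, 1.65, 1.53 and 1.51 TPM. Library 23 stood far above the other 9 of its group, which lay within a few-fold of each other, and the low group was tight. The first library left out below the high group had 4.60 TPM and the first above the low group 2.36 TPM. Because Lepr chose the groups, these values describe them and were not tested.

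**Figure D1:**
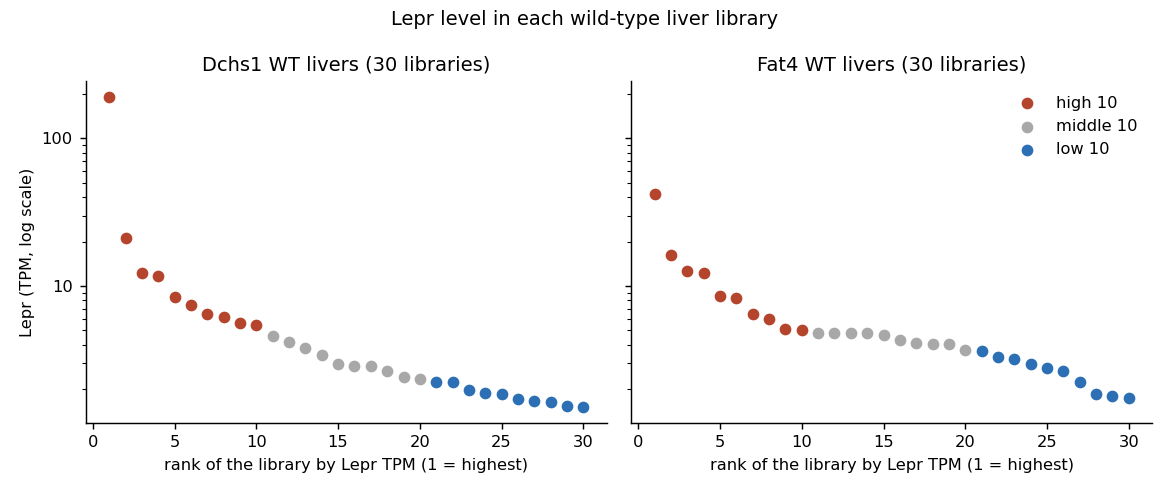
Lepr level (TPM, log scale) of each wild-type liver library against its rank by Lepr, in Dchs1 WT livers (left, 30 libraries) and Fat4 WT livers (right, 30 libraries), with the high 10, middle 10 and low 10 in separate colours. The Dchs1 high group runs over 5.44 to 192.3 TPM and its low group over 1.51 to 2.24 TPM, with 1 library far above the rest.

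Dchs1 Het livers all lay higher, at 34.0 to 208 TPM of Lepr (median 85.3, n = 29), than 29 of the 30 Dchs1 WT livers. Dchs1 WT library 23, at 192.3 TPM, lay within the range of Dchs1 Het livers. Fat4 Het livers ran over 1.69 to 102 TPM (median 6.76, n = 30). Fat4 WT livers had 5.06 to 42.1 TPM in their 10 high libraries (median 8.41) and 1.74 to 3.63 TPM in their 10 low libraries (median 2.72), with 4.84 and 3.68 TPM in the libraries just outside. Their high and low groups thus lay closer to each other than those of the Dchs1 line.

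Library totals were 16125657 to 22853358 estimated counts in Dchs1 WT livers high in Lepr and 17228624 to 21695911 in those low in Lepr. Over both WT lines 14 values were compared. They were technical ones, such as totals, genes detected and the share of mitochondrial counts, and levels of the serum amyloid Saa2 and of the line's targeted gene. No difference between high and low passed the test (permutation test, two-sided, adjusted p at least 0.489). The smallest p, 0.0349 before adjustment, was that of Saa2 in Fat4 WT livers, which was lower in high-Lepr livers. The libraries fall into 2 stretches of consecutive numbers in their titles, which held 8 and 2 of the high-Lepr libraries and 7 and 3 of the low-Lepr libraries (Fisher's exact test, two-sided p = 1). The targeted gene Dchs1 ran over 0.515 to 2.01 CPM in Het livers (median 1.24, n = 29) and 1.01 to 4.26 CPM in WT livers (median 2.81, n = 30), so the ranges overlapped. Fat4 ran over 0.649 to 2.09 CPM in Het livers and 1.35 to 4.20 CPM in WT livers of its line. A pair of high-Lepr libraries stood apart. Library 23 lay outside the range of the other 29 WT livers at 3332 of 12415 genes, 2217 of them within the range of Dchs1 Het livers, with Dchs1 at 2.12 CPM, above the highest Het liver. Library 7, the other, lay outside at 5663 genes, had 33.0% of its counts from the mitochondrial genome against a median of 11.6% in its group, and had Dchs1 at 1.01 CPM, the lowest of the 30. The share of outside genes that lay within the Het range was not particular to library 23. Such genes were 477 of 634 in high-Lepr library 10 and 349 of 459 in high-Lepr library 4. They were 2091 of 5663 in library 7 and 253 of 1110 in low-Lepr library 15.

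Apart from Lepr, 12415 genes were tested between the 10 high-Lepr and 10 low-Lepr Dchs1 WT livers, and 1233 passed an adjusted p threshold of 0.05 (9.93% of those tested, edgeR quasi-likelihood test with Benjamini-Hochberg adjustment). Of these, 636 were higher (5.12%) and 597 lower (4.81%) in high-Lepr livers. Most differences were modest, with a median size of 0.48 on the log2 scale, and 158 genes passed 2-fold, 104 of them higher. Without library 23 the count was 1099, and without libraries 23 and 7 it was 1061. The test on log2(TPM + 1) with limma called fewer, 172 higher and 264 lower. Every test here concerns how another gene goes with the order of Lepr.

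Cyp17a1 (chr19:46667165-46673000, GRCm38.p6), the steroid 17α-hydroxylase, led the genes that were higher in high-Lepr livers. It ran over 70.8 to 329.6 TPM (median 116) in high-Lepr livers, against 7.77 to 55.5 TPM (median 25.6) in low-Lepr livers, and the groups did not overlap. The log2 fold change was 2.62 ± 0.35 (high over low, ± standard error of the fit, n = 10 each; adjusted p = 0.000713), and without library 23 it was 2.42. Il1rn (chr2:24336860-24351491), the secreted antagonist of the interleukin-1 receptor, ran over 2.39 to 14.6 TPM (median 4.39) in high-Lepr livers, against 1.14 to 2.24 TPM (median 1.73) in low-Lepr livers. These ranges did not overlap either, at a log2 fold change of 1.86 ± 0.30 (adjusted p = 0.00162). Elovl5 (chr9:77917365-77984519), which lengthens polyunsaturated fatty acids, ran over 272 to 739.6 TPM (median 518) in high-Lepr livers, against 161 to 329 TPM (median 286) in low-Lepr livers. Its groups overlapped only through library 7, the lowest of the high-Lepr libraries (0.99 ± 0.15, adjusted p = 0.00144). Morc4, of a family of chromatin ATPases, was low throughout at 1.41 to 2.22 TPM (median 1.63) in high-Lepr livers, against 0.741 to 1.29 TPM (median 0.923) in low-Lepr livers, yet the ranges stayed separate (0.84 ± 0.12, adjusted p = 0.000713).

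Several of the steepest rises rested in size on library 23. Adcy1, a calcium-stimulated adenylyl cyclase, ran over 0.041 to 5.97 TPM (median 0.153) in high-Lepr livers, against 0.0194 to 0.0864 TPM (median 0.0593) in low-Lepr livers, and its log2 fold change of 3.75 ± 0.84 (adjusted p = 0.00844) was 1.82 without library 23. Ddit4, an inhibitor of the growth kinase complex mTORC1, ran over 3.76 to 259 TPM (median 7.52) in high-Lepr livers, against 3.14 to 10.2 TPM (median 3.77) in low-Lepr livers, and its log2 fold change of 2.94 was 1.16 without library 23. For Cend1, which is known from neurons leaving the cell cycle, the values were 0.459 to 19.4 TPM (median 1.27) in high-Lepr livers, against 0 to 0.934 TPM (median 0.102) in low-Lepr livers, and the log2 fold change was 4.08 with and 3.03 without library 23. All 3 kept adjusted p-values under the threshold without it (0.00547 for Adcy1, 0.0162 for Ddit4 and 0.0018 for Cend1). Tff3, a trefoil peptide of mucosal secretions, did not lean on it, at 0.658 to 66.0 TPM (median 12.7) in high-Lepr livers, against 0.558 to 4.45 TPM (median 1.31) in low-Lepr livers, with a log2 fold change of 3.66 ± 0.73 and 3.796 without library 23.

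Lower in high-Lepr livers were Cyp1a2 (chr9:57676937-57683655), the cytochrome P450 that clears caffeine, and Ces3a (chr8:105048576-105061928), a carboxylesterase of the hepatocyte's secretory pathway. Cyp1a2 ran over 96.4 to 187 TPM (median 122) in high-Lepr livers, against 183 to 266 TPM (median 229) in low-Lepr livers (-0.68 ± 0.11, adjusted p = 0.00144), and Ces3a over 477 to 1172 TPM (median 899) in high-Lepr livers, against 1184 to 1714 TPM (median 1383) in low-Lepr livers (-0.57 ± 0.09, adjusted p = 0.00144). In both, the groups met end to end with at most a narrow overlap in TPM. Dct, known for its step in melanin synthesis, had 0.160 to 0.672 TPM (median 0.500) in high-Lepr livers, against 0.973 to 2.85 TPM (median 1.44) in low-Lepr livers, with no overlap (-1.71 ± 0.22, adjusted p = 0.000713). Col27a1, a fibrillar collagen, ran over 0.863 to 2.94 TPM (median 1.65) in high-Lepr livers, against 2.59 to 8.89 TPM (median 4.39) in low-Lepr livers (-1.62 ± 0.22, adjusted p = 0.000713). The secreted serpin Serpina12 was spread widely at 0.0978 to 5.2 TPM (median 1.38) in high-Lepr livers, against 5.22 to 45.6 TPM (median 25.4) in low-Lepr livers, and its ranges touched without crossing (-2.21 ± 0.48, adjusted p = 0.00698). In CPM, 18 of the 12415 genes tested had no overlap between the groups. These 18 were all called, where 9.93% of all genes tested were. Groups that separate fully in the same libraries all but ensure a call, so this adds no support.

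**Figure D2:**
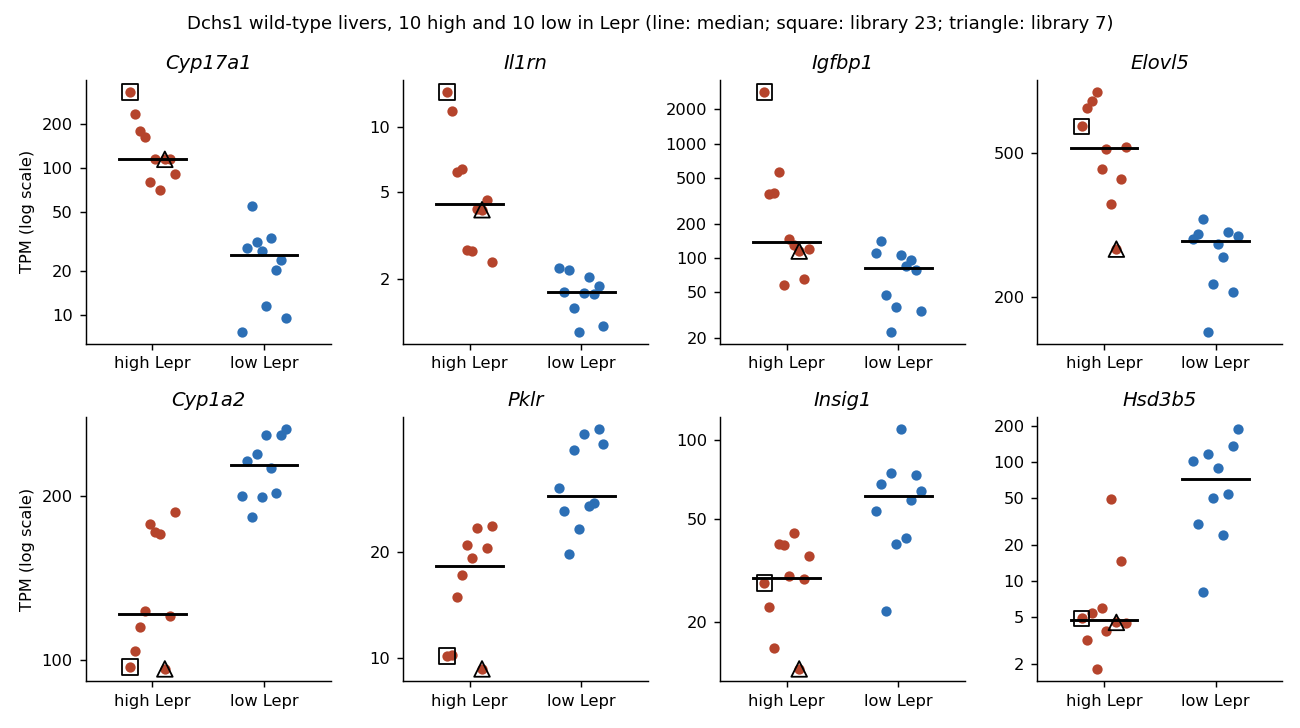
Level (TPM, log scale) of 8 genes in each of the 10 high-Lepr (left) and 10 low-Lepr (right) Dchs1 WT livers, with a line at the median, a square on library 23 and a triangle on library 7. The groups separate for Cyp17a1 and Il1rn, and for Igfbp1 they overlap, with library 23 far above the others.

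Over all 30 Dchs1 WT livers, middle 10 included, the gene whose TPM ordered the libraries most like Lepr was Cyp17a1 (Spearman's rho 0.87). It was followed by Nipal1, a magnesium transporter (0.85), Cend1 (0.85) and Il1rn (0.84). The most opposed were Cyp1a2 (-0.87), Ces3a (-0.86), the RIKEN transcript C730036E19Rik (-0.84) and Naa60, a protein N-acetyltransferase (-0.83). Over the 30 Fat4 WT livers the closest were Caprin1, an RNA-binding protein of stress granules (0.79), Il17rb, a receptor chain for interleukin-25 (0.76), Nipal1 (0.73) and Elovl5 (0.73). C730036E19Rik was again among the most opposed (-0.76), with Saa4 (-0.77) and Cyp2c50 (-0.74). These are descriptions over libraries that also differ in depth and composition. In the Dchs1 line Nipal1 itself ran over 5.65 to 25.02 TPM (median 9.44) in high-Lepr livers, against 0.101 to 5.81 TPM (median 2.38) in low-Lepr livers, with a log2 fold change of 2.168 ± 0.41 (adjusted p = 0.00282). The 10 middle libraries, which took no part in the comparison of 10 against 10, had a median between those of the high and low groups for 1133 of the 1233 genes called (91.9%), against 50.7% of all genes tested. Genes called were chosen for a gap between the high and low groups. A larger share is expected from that choice alone, so these shares are a description.

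In Fat4 WT livers the same split called far fewer genes, 5 of 12362 (0.0404%), of which 2 were higher (0.0162%) and 3 lower (0.0243%) in high-Lepr livers. DESeq2 called 65, and 1511 had an unadjusted p under 0.05. In this line Cyp17a1 ran over 31.1 to 253 TPM (median 75.4) in high-Lepr livers, against 12.2 to 46.5 TPM (median 31.1) in low-Lepr livers (1.72 ± 0.32, adjusted p = 0.0438). Morc4 was the other gene that was higher (0.64 ± 0.12), and both had also been called in the Dchs1 line. Selenbp2, a selenium-binding protein, ran in the Fat4 line over 42.4 to 129 TPM (median 76.9) in high-Lepr livers, against 58.8 to 408 TPM (median 257) in low-Lepr livers (-1.44 ± 0.25). In the Dchs1 line it ran over 60.3 to 284 TPM (median 89.6) in high-Lepr livers, against 75.3 to 543 TPM (median 362) in low-Lepr livers (-1.495 ± 0.27). Thrsp, a factor that favours fat synthesis, was lower in both lines (-0.56 ± 0.10 in Fat4, -0.65 ± 0.15 in Dchs1). All 5 had an adjusted p of 0.0438, and each was lost in at least 17 of the 20 fits that left out 1 Fat4 library.

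Although few passed the threshold in the Fat4 line, the direction was largely shared. Of the 1226 genes called in Dchs1 WT livers and tested in Fat4 WT livers, 1193 had the same sign (97.3%), against 76.0% of all genes tested in both. An unadjusted p under 0.05 with the same sign was found for 626 of them (51.1%, against 11.8% of all genes). Over these genes fold changes were smaller in the Fat4 line, with a median ratio of 0.49 on the log2 scale. The genes were chosen by passing the threshold in the Dchs1 line, which by itself favours larger values there. The ratio therefore does not measure a difference between lines. The spread of Lepr between the Fat4 groups was also smaller, and its part in the ratio was not tested. Without Dchs1 library 23 the shared share was 97.5% of 1090. The test of the difference between lines called 0 of 12769 genes (0%) with edgeR and 0 with DESeq2, and 507 genes had an unadjusted p under 0.05. With Lepr as a gradient over all libraries of both lines, 1 of 13498 genes was called.

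**Figure D3:**
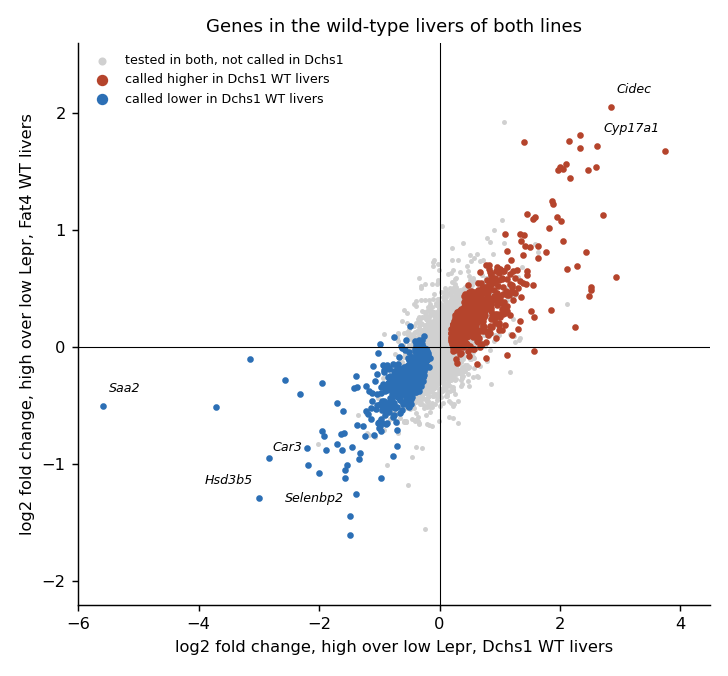
Log2 fold change (high over low Lepr) of each gene tested in both lines, Fat4 WT livers (y axis) against Dchs1 WT livers (x axis), with genes called higher or lower in the Dchs1 line in colour and the rest in grey. Of 1226 coloured genes, 1193 lie on the same side of 0 on both axes, with smaller values on the y axis.

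Of 19 tested genes that transmit or curb the leptin signal, 1 was higher and 1 lower, near the shares of 5.12% and 4.81% of all genes. With Lepr as a gradient over all 30 libraries, 6 were higher and 2 lower, where 1837 of 13305 genes were higher and 1694 lower. Without the library highest in Lepr that gradient had 4 higher and 2 lower. Stat3 was higher (0.34 ± 0.09, adjusted p = 0.0161), and Stat5a, another factor that cytokine receptors activate, was lower (-0.50 ± 0.12, adjusted p = 0.0137). Socs3, the feedback inhibitor that STAT3 induces, ran over 1.48 to 17.3 TPM (median 4.29) in high-Lepr livers, against 2.67 to 3.65 TPM (median 3.24) in low-Lepr livers and was not called (adjusted p = 0.0959). Leprot ran over 6.03 to 17.2 TPM (median 11.7) in high-Lepr livers, against 8.92 to 12.1 TPM (median 10.4) in low-Lepr livers and was not called either (adjusted p = 0.102).

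A part of the genes that burn fat was higher in high-Lepr livers, and none was lower. Of 29 tested targets of PPARα, the nuclear receptor that switches on fatty acid oxidation in fasting, 10 were higher and 0 lower, against 5.12% and 4.81% of all genes. The list median log2 fold change was 0.24 against 0.01 over all genes. Cyp4a14, a fatty acid ω-hydroxylase, ran over 1889.6 to 10784 TPM (median 4829) in high-Lepr livers, against 1143 to 3169.5 TPM (median 2408) in low-Lepr livers (1.17 ± 0.24, adjusted p = 0.00548). Acot2, which frees fatty acids from coenzyme A in mitochondria, ran over 9.61 to 59.96 TPM (median 38.0) in high-Lepr livers, against 8.66 to 26.6 TPM (median 19.9) in low-Lepr livers (1.19 ± 0.25, adjusted p = 0.00622). In both, the high-Lepr livers were mostly above the low-Lepr livers, with overlapping ranges. Cpt1a, the gate for fatty acids into mitochondria, changed little but evenly, at 143 to 329.9 TPM (median 305) in high-Lepr livers, against 204 to 257 TPM (median 228) in low-Lepr livers (0.36 ± 0.08, adjusted p = 0.0101), and 9 of 10 high-Lepr livers lay above every low-Lepr liver, the other being library 7. The hepatokine Fgf21, a PPARα target, was not called (1.03 ± 0.48, adjusted p = 0.174). Without library 23, 7 were higher, and limma on TPM called 2.

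Genes of amino acid breakdown that passed the test were all higher. Of 24 tested genes, 10 were higher and 0 lower (median 0.37), against 5.12% and 4.81% of all genes. The count higher was 10 without library 23 and 6 with limma. Tdo2, which opens the tryptophan ring, ran over 1973 to 4045 TPM (median 2427) in high-Lepr livers, against 1521 to 2066 TPM (median 1691) in low-Lepr livers, with no overlap in CPM (0.59 ± 0.12, adjusted p = 0.00606). Got1, the cytosolic aspartate aminotransferase, ran over 193 to 1316 TPM (median 370.1) in high-Lepr livers, against 96.2 to 339 TPM (median 206) in low-Lepr livers (1.23 ± 0.28, adjusted p = 0.00922). Aass, which starts lysine breakdown, ran over 182 to 742 TPM (median 272) in high-Lepr livers, against 132 to 248 TPM (median 175) in low-Lepr livers (1.01 ± 0.21, adjusted p = 0.00622), and only the tails of its groups overlapped. The urea cycle, which disposes of the freed nitrogen, was part of a periportal list of which 7 of 17 were higher and 1 lower (median 0.50). Within it Arg1, the arginase that releases urea, ran over 1569 to 3233 TPM (median 2186) in high-Lepr livers, against 936 to 2134 TPM (median 1564) in low-Lepr livers (0.70 ± 0.15, adjusted p = 0.00822), and Cps1, which commits ammonia to the cycle, had a log2 fold change of 0.73 ± 0.19 (adjusted p = 0.0184). Without libraries 23 and 7 the counts were 10 for amino acid breakdown and 7 for the periportal list.

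A list held 18 genes of gluconeogenesis and targets of FOXO1, the transcription factor that insulin holds out of the nucleus. Of these, 5 were higher and 1 lower (median 0.14), against 5.12% and 4.81% of all genes, and 4 and 0 without library 23. The rate-limiting enzymes were not among them. Pck1 ran over 1209 to 3161 TPM (median 2126) in high-Lepr livers, against 1413 to 2793 TPM (median 2052) in low-Lepr livers (adjusted p = 0.560), and the other late enzyme, G6pc, ran over 137 to 509.6 TPM (median 329.6) in high-Lepr livers, against 171 to 523 TPM (median 336) in low-Lepr livers (adjusted p = 0.991). Their groups lay on top of each other. Ppargc1a, a coactivator of fasting genes, was higher at 2.10 to 15.6 TPM (median 4.71) in high-Lepr livers, against 1.54 to 3.54 TPM (median 2.47) in low-Lepr livers (1.36 ± 0.29, adjusted p = 0.00606). Igfbp1, a binding protein of insulin-like growth factor that insulin represses, ran over 58.0 to 2859.8 TPM (median 139) in high-Lepr livers, against 22.7 to 141 TPM (median 81.3) in low-Lepr livers, and its log2 fold change of 2.71 ± 0.62 (adjusted p = 0.00972) was 1.58 without library 23. Apart from library 23, 4 high-Lepr livers lay above the highest low-Lepr liver.

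Genes of sugar use and fat synthesis moved both ways. In a list of insulin response and glycolysis, 4 of 15 were higher and 2 lower, and in one of fatty acid synthesis 2 of 17 were higher and 4 lower. The shares over all genes tested were 5.12% higher and 4.81% lower. Pklr, the liver pyruvate kinase that ends glycolysis, ran over 9.34 to 23.6 TPM (median 18.2) in high-Lepr livers, against 19.8 to 44.4 TPM (median 28.8) in low-Lepr livers, with groups that overlapped at their edges (-0.87 ± 0.15, adjusted p = 0.00187). Mlxipl, which codes for the glucose-sensing factor ChREBP that drives Pklr, was lower at 26.3 to 68.5 TPM (median 49.4) in high-Lepr livers, against 48.9 to 110.3 TPM (median 80.1) in low-Lepr livers (-0.69 ± 0.15, adjusted p = 0.00631). Srebf1, the insulin-driven regulator of fat synthesis, was lower by a small margin (-0.78 ± 0.25, adjusted p = 0.0495), and Fasn, the fatty acid synthase, missed the threshold (-0.45 ± 0.15, adjusted p = 0.055). Insig2, which retains SREBP in the endoplasmic reticulum and which insulin represses in liver, was higher at 188 to 1437 TPM (median 522) in high-Lepr livers, against 204 to 556 TPM (median 277) in low-Lepr livers (0.93 ± 0.25, adjusted p = 0.0236). Of 18 lipid droplet genes, 3 were higher and 2 lower. The number higher ran over 1 to 7 when 1 library was left out, with 1 without high-Lepr library 10 and 7 without library 7. Cidec, which fuses droplets into larger ones, ran over 3.31 to 119 TPM (median 25.1) in high-Lepr livers, against 1.49 to 24.9 TPM (median 2.49) in low-Lepr livers (2.84 ± 0.65, adjusted p = 0.00935; 2.43 without library 23). Its low group stayed near the bottom except for library 25.

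Genes of cholesterol synthesis were lower or did not pass the test. Of 24 tested genes of the pathway and its regulation, 13 were lower and 0 higher in high-Lepr livers, against 4.81% and 5.12% of all genes. The list median log2 fold change was -0.67. The count was 13 without library 23, 12 without libraries 23 and 7, 11 with limma on TPM, and 12 to 15 when any 1 library was left out. Insig1, whose product holds the sterol sensor SCAP in the endoplasmic reticulum, ran over 13.3 to 44.2 TPM (median 29.7) in high-Lepr livers, against 22.2 to 110.4 TPM (median 61.3) in low-Lepr livers (-0.96 ± 0.19, adjusted p = 0.00478). Stard4, a cholesterol carrier, ran over 2.48 to 10.6 TPM (median 6.87) in high-Lepr livers, against 4.31 to 24.8 TPM (median 14.2) in low-Lepr livers (-1.13 ± 0.23, adjusted p = 0.00516). All 10 high-Lepr livers were below the low group's median for both, and the ranges overlapped. Cyp51, the lanosterol demethylase, ran over 5.74 to 15.0 TPM (median 10.9) in high-Lepr livers, against 9.72 to 32.8 TPM (median 21.6) in low-Lepr livers (-0.84 ± 0.16, adjusted p = 0.00287), and Hmgcs1, which makes HMG-CoA for the pathway, over 21.9 to 59.8 TPM (median 40.8) in high-Lepr livers, against 33.3 to 145 TPM (median 61.9) in low-Lepr livers (-0.79 ± 0.20, adjusted p = 0.0148). In Fat4 WT livers 0 of 24 were called, and the list median was -0.24.

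A list of 23 growth hormone and sex-biased liver genes held 16 that passed the filter on low counts. Of these 16, 9 were lower and 0 higher (median -0.61), against 4.81% and 5.12% of all genes. The count lower was 9 without library 23, 9 without libraries 23 and 7, and 9 with limma. DESeq2, fitted on all 23, had 9 lower and 2 higher. The gradient over all libraries, with 20 tested, had 6 lower and 2 higher, where 1694 of 13305 genes were lower and 1837 higher. Without the library highest in Lepr that gradient, with 19 tested, had 9 lower and 0 higher, where 1009 of 13024 genes were lower and 1052 higher. Hsd3b5, a steroid reductase of male liver, ran over 1.83 to 48.8 TPM (median 4.68) in high-Lepr livers, against 8.12 to 187 TPM (median 70.9) in low-Lepr livers (-3.00 ± 0.55, adjusted p = 0.00245). In 8 of 10 high-Lepr livers it lay below every low-Lepr liver. Igfals, which stabilizes insulin-like growth factor in blood, ran over 11.3 to 51.6 TPM (median 31.3) in high-Lepr livers, against 46.1 to 73.4 TPM (median 59.9) in low-Lepr livers (-0.88 ± 0.19, adjusted p = 0.00749). Ghr, the growth hormone receptor, ran over 61.8 to 200.1 TPM (median 147) in high-Lepr livers, against 163 to 318 TPM (median 225) in low-Lepr livers and was lower by a small margin (-0.54 ± 0.17, adjusted p = 0.0452), whereas Igf1, the hormone's main product in liver, was not called (-0.16 ± 0.13, adjusted p = 0.469). Hsd3b5 and the Mup and Cyp2 genes of this list have near-identical copies, among which reads may have been shared out.

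Pericentral genes, which hepatocytes near the central vein express, were mostly on the lower side, with 6 of 16 lower and 2 higher. The shares over all genes tested were 4.81% lower and 5.12% higher. Rgn, a calcium-binding enzyme of vitamin C synthesis, ran over 81.4 to 394 TPM (median 230.3) in high-Lepr livers, against 266 to 522 TPM (median 377) in low-Lepr livers (-0.72 ± 0.17, adjusted p = 0.0116). Cyp2c29, a drug-metabolizing cytochrome, ran over 189.9 to 396 TPM (median 320.3) in high-Lepr livers, against 346 to 557 TPM (median 441) in low-Lepr livers (-0.47 ± 0.11, adjusted p = 0.01). In TPM, 9 of 10 high-Lepr livers were below the low group's median for Rgn and 10 of 10 for Cyp2c29. In a bulk sample, fewer cells of a type and less RNA per cell cannot be told apart. Of 20 clock genes and their outputs, 6 were lower and 1 higher. Per3, a repressor of the clock, ran over 0.1004 to 0.394 TPM (median 0.261) in high-Lepr livers, against 0.122 to 1.02 TPM (median 0.671) in low-Lepr livers (-1.22 ± 0.26, adjusted p = 0.00665), and Dbp, its output factor, over 1.21 to 3.98 TPM (median 2.01) in high-Lepr livers, against 2.04 to 11.9 TPM (median 3.66) in low-Lepr livers (-1.02 ± 0.28, adjusted p = 0.0252). Arntl, the clock activator that runs in the opposite phase, was higher at 12.2 to 19.9 TPM (median 14.6) in high-Lepr livers, against 8.30 to 14.7 TPM (median 12.01) in low-Lepr livers (0.42 ± 0.11, adjusted p = 0.018). Without libraries 23 and 7 the clock list, with 21 tested, had 4 lower and 0 higher. With limma on TPM, with 18 tested, it had 2 lower and 0 higher. Neither of these fits called Arntl higher. DESeq2, with 21 tested, had 8 lower and 2 higher. In Dchs1 Het livers 1 of 20 clock genes was lower and 0 higher (median 0.09). In Fat4 Het livers 4 of 21 were lower and 2 higher. The labels give no time of collection.

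Stress lists differed in how many members were higher, where 5.12% of all genes were higher and 4.81% lower. Counts were 5 of 11 higher for heat shock genes, 5 of 15 for targets of ATF4, the factor of the integrated stress response, 5 of 15 for immediate early genes, 5 of 16 for glucocorticoid-responsive genes and 3 of 12 for p53 targets, and among these lists 1 gene was lower, a glucocorticoid-responsive one. Lists can share members, such as Btg2 in both the immediate early and p53 lists, so these counts are not separate. Of 15 targets of NRF2, the oxidative stress factor, 2 were higher (median 0.04). The gradient had 3 higher and 4 lower, where 1837 of 13305 genes were higher and 1694 lower. Without the library highest in Lepr that gradient had 3 higher and 1 lower, where 1052 of 13024 genes were higher and 1009 lower. Of 14 chaperones and sensors of the unfolded protein response in the endoplasmic reticulum, 0 were higher and 1 lower (median -0.17). That 1 was the chaperone Hyou1 (-0.41 ± 0.12), whose adjusted p was 0.0539 without library 23. Btg2, an antiproliferative early gene, ran over 3.36 to 48.4 TPM (median 10.5) in high-Lepr livers, against 2.80 to 4.16 TPM (median 3.08) in low-Lepr livers (2.12 ± 0.37, adjusted p = 0.0023), and 7 of 10 high-Lepr livers lay above every low-Lepr liver. Nr4a1, an orphan nuclear receptor of the early response, ran over 0.510 to 11.8 TPM (median 1.602) in high-Lepr livers, against 0.212 to 1.12 TPM (median 0.515) in low-Lepr livers (2.28 ± 0.51, adjusted p = 0.00882). Cdkn1a, the cell cycle inhibitor p21, ran over 49.8 to 155 TPM (median 71.3) in high-Lepr livers, against 12.8 to 69.7 TPM (median 20.3) in low-Lepr livers (1.52 ± 0.30, adjusted p = 0.00417). Asns, which makes asparagine and is induced by ATF4, ran over 2.59 to 44.4 TPM (median 11.5) in high-Lepr livers, against 0.907 to 9.81 TPM (median 3.64) in low-Lepr livers (2.33 ± 0.53, adjusted p = 0.00927), and its ranges overlapped widely. Hspb1, a small chaperone, ran over 22.9 to 83.9 TPM (median 46.4) in high-Lepr livers, against 14.5 to 46.0 TPM (median 18.3) in low-Lepr livers (1.01 ± 0.24, adjusted p = 0.0114). Sgk1, a kinase that glucocorticoids induce, ran over 11.95 to 75.9 TPM (median 22.04) in high-Lepr livers, against 7.14 to 16.7 TPM (median 12.4) in low-Lepr livers (1.44 ± 0.29, adjusted p = 0.00425). With limma, 5 heat shock genes, 0 ATF4 targets, 1 immediate early gene, 2 glucocorticoid-responsive genes and 2 p53 targets were called higher.

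Secreted factors of the liver included a few with marked differences. Of 18 hepatokines, 4 were higher and 1 lower, against 5.12% and 4.81% of all genes. Fst, a binding protein of activins, ran over 2.14 to 21.6 TPM (median 3.29) in high-Lepr livers, against 0.664 to 2.75 TPM (median 1.602) in low-Lepr livers (1.96 ± 0.42, adjusted p = 0.00631), and Inhbb, an activin subunit, ran over 0.993 to 4.68 TPM (median 1.57) in high-Lepr livers, against 0.552 to 1.03 TPM (median 0.818) in low-Lepr livers (1.31 ± 0.24, adjusted p = 0.00232). Both stood above the low group's median in all 10 high-Lepr livers. Of 22 acute phase genes, 6 were lower and 2 higher. Low-Lepr library 13 decided the size of the largest falls. Saa2, a serum amyloid, ran over 15.98 to 54.4 TPM (median 24.8) in high-Lepr livers, against 14.2 to 12706 TPM (median 33.1) in low-Lepr livers, and the next highest low-Lepr liver had 299 TPM. Its log2 fold change of -5.59 ± 1.29 (adjusted p = 0.0103) was -1.09 without low-Lepr library 13 (adjusted p = 0.136). Without library 13, Saa1 was at -0.80, Orm2 at -0.42 and Lcn2 at 0.22, against -3.71, -2.57 and -3.15 with it. Saa4 moved less, at -0.66 without library 13 (adjusted p = 0.0621) against -0.73 with it. No acute phase gene was called lower without library 13 (0 of 22). Of 20 interferon response genes 2 were higher, and 7 without library 23. With Lepr as a gradient over all 30 libraries, 0 were higher and 4 lower, where 1837 of 13305 genes were higher and 1694 lower. Without the library highest in Lepr that gradient had 2 higher and 0 lower.

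Of 20 cytosolic ribosomal proteins 0 were called, and of 19 respiratory chain genes 1 was higher. Of all genes tested, 5.12% were higher and 4.81% lower, and the marker counts that follow are to be read beside these shares. Summed markers of the liver's cell types overlapped between groups. Hepatocyte markers (1 of 9 higher, 1 lower) summed to 80251 to 131847 TPM in high-Lepr livers and 95491 to 123577 TPM in low-Lepr livers. Kupffer cell and macrophage markers (0 of 12 called) summed to 122 to 284 TPM in high-Lepr livers and 166 to 362 TPM in low-Lepr livers. Endothelial markers summed to 123 to 239 TPM in high-Lepr livers and 149 to 210 TPM in low-Lepr livers (1 of 12 higher, Lyve1), and stellate and fibroblast markers to 179 to 255 TPM in high-Lepr livers and 173 to 263 TPM in low-Lepr livers (1 of 12 higher, Pdgfra). Adipocyte markers reached at most 6.34 TPM in sum in high-Lepr livers and 6.99 TPM in low-Lepr livers, with Lep, Retn and Plin1 at a median of 0. The part of cell makeup in the differences above was not tested.

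**Figure D4:**
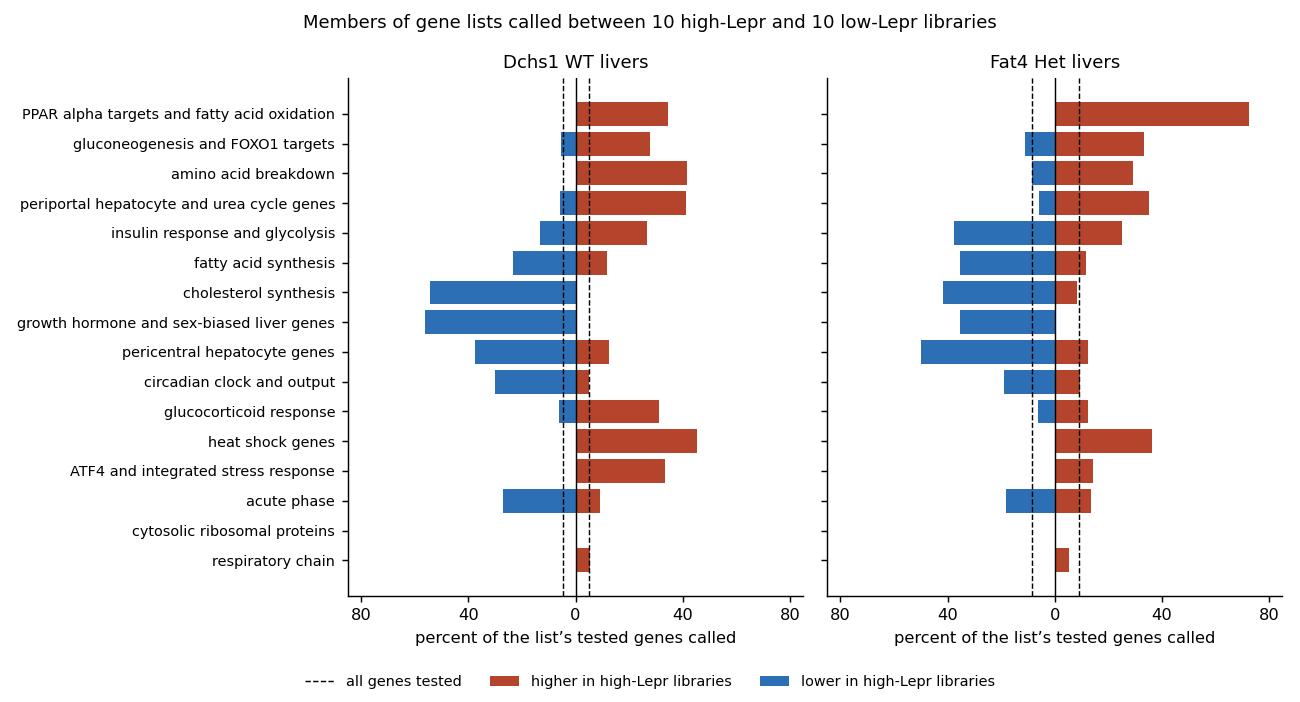
Percent of the tested members of 16 gene lists called higher (right of 0) or lower (left of 0) in high-Lepr libraries, in Dchs1 WT livers (left panel) and Fat4 Het livers (right panel), with dashed lines at the shares of all genes tested. In Dchs1 WT livers the cholesterol synthesis bar (13 of 24) and the growth hormone bar (9 of 16) reach farthest to the lower side, and ribosomal proteins have no bar.

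The same split within Het livers, whose libraries are all different ones, called 2167 of 12381 genes in Fat4 Het livers (17.5%; 1123 higher, 9.07%, and 1044 lower, 8.43%) and 432 of 12371 in Dchs1 Het livers (3.49%; 224 higher, 1.81%, and 208 lower, 1.68%). Without the Dchs1 Het library highest in Lepr, 177 genes were called in Dchs1 Het livers. Of the genes called in Dchs1 WT livers, 1170 of 1227 had the same sign in Fat4 Het livers (95.4%, against 72.4% of all genes) and 951 of 1222 in Dchs1 Het livers (77.8%, against 59.8%). Called in the same direction in both Dchs1 WT and Fat4 Het livers were 684 genes, 55.5% of the Dchs1 WT calls and 31.6% of the Fat4 Het calls. In Fat4 Het livers, 21 of 29 PPARα targets were higher and 0 lower, and 10 of 24 cholesterol synthesis genes were lower and 2 higher. Not every list repeated there. Of 16 glucocorticoid-responsive genes, 2 were higher and 1 lower (median -0.01), and of 14 NRF2 targets, 2 were higher and 6 lower. In Dchs1 Het livers, where Lepr was high throughout, 1 of 29 PPARα targets was higher and 9 of 24 cholesterol synthesis genes were lower, or 3 without the library highest in Lepr.

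Single genes followed Lepr in some groups and were not called in others. Cyp17a1 had log2 fold changes of 2.40 ± 0.27 in Fat4 Het livers (adjusted p = 1.40e-05) and 0.40 ± 0.18 in Dchs1 Het livers (adjusted p = 0.208). Elovl5 had 0.88 ± 0.10 in Fat4 Het and -0.02 ± 0.11 in Dchs1 Het livers, and Hsd3b5 had -3.60 ± 0.50 in Fat4 Het and -0.37 ± 0.45 in Dchs1 Het livers. Whether these responses differ between genotypes was not tested. Cyp1a2 was lower in both, with -0.45 ± 0.09 in Fat4 Het livers (adjusted p = 0.0019) and -0.61 ± 0.17 in Dchs1 Het livers (adjusted p = 0.0441). Called in 1 direction in Dchs1 WT, Dchs1 Het and Fat4 Het livers were 127 genes, 49 higher and 78 lower, where 12415 genes were tested in Dchs1 WT livers. The same sign in Fat4 WT livers was found for 126 of them, against 97.3% of the Dchs1 WT calls and 76.0% of all genes. Without 1 library the Dchs1 Het calls fell from 432 to 177, and the 127 was not recounted for that fit.

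Among those 127, named after their values were seen, were Nrg4, a secreted growth factor of the epidermal growth factor family, and Car3, a carbonic anhydrase of fat and male liver. In Dchs1 WT livers, Nrg4 ran over 2.23 to 44.9 TPM (median 3.96) in high-Lepr livers, against 1.02 to 2.41 TPM (median 1.43) in low-Lepr livers (2.44 ± 0.50, adjusted p = 0.00548), with log2 fold changes of 1.62 in Fat4 Het, 1.94 in Dchs1 Het and 0.81 in Fat4 WT livers. In the same livers Car3 ran over 5.01 to 329 TPM (median 126) in high-Lepr livers, against 186 to 1240.5 TPM (median 679) in low-Lepr livers (-2.18 ± 0.48, adjusted p = 0.00758), with -2.78 in Fat4 Het, -1.95 in Dchs1 Het and -1.003 in Fat4 WT livers. In both genes the Dchs1 WT groups overlapped only at their edges. Sik1, a kinase induced by cAMP that restrains gluconeogenesis, was higher with 1.34 in Dchs1 WT, 1.75 in Fat4 Het and 1.53 in Dchs1 Het livers, and had 0.56 in Fat4 WT livers. Pdk4, which keeps pyruvate out of the citric acid cycle, was called in the same 3 groups, but its Dchs1 WT medians were 6.82 TPM in high-Lepr livers and 5.98 TPM in low-Lepr livers, and 1 library reached 181 TPM.

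**Figure D5:**
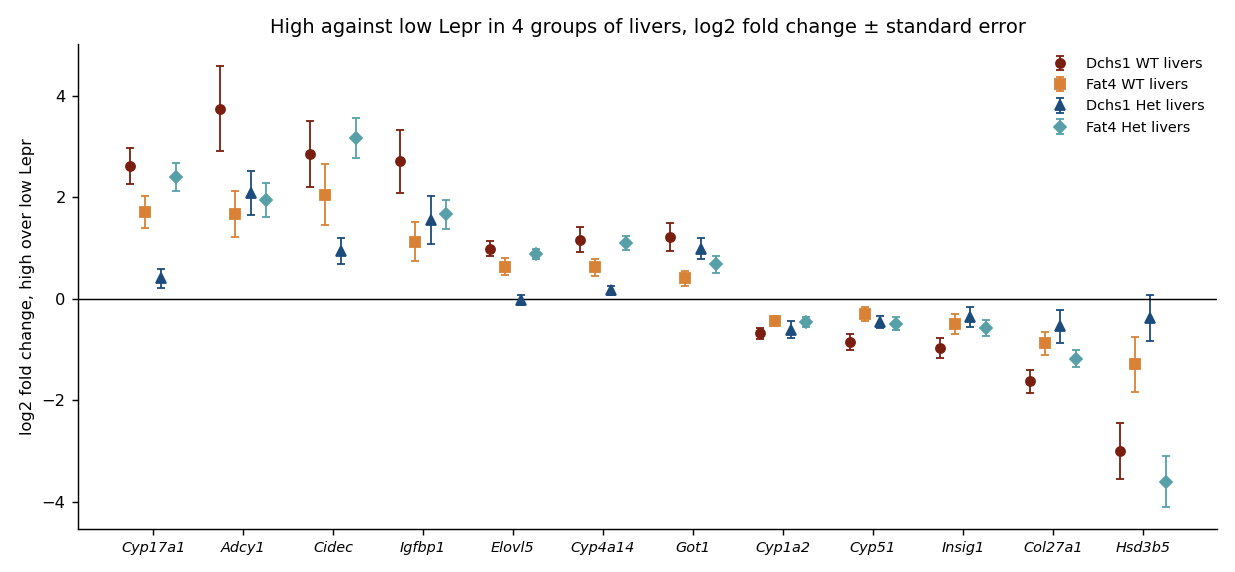
Log2 fold change (high over low Lepr) with its standard error for 12 genes in Dchs1 WT, Fat4 WT, Dchs1 Het and Fat4 Het livers (n = 10 high and 10 low in each). Adcy1, Cidec, Igfbp1 and Got1 lie above 0 and Cyp1a2, Cyp51, Insig1 and Col27a1 below 0 in all 4 groups, while Elovl5 lies near 0 in Dchs1 Het livers.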

How the data were processed

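The deposited values of each line are estimated counts, by gene, and TPM, which the authors computed beside them. Strand-specific libraries were made from polyA-selected mRNA and sequenced as single reads, per the labels' protocols. Per the submitters' processing notes, bcl2fastq 2.17, FastQC and GRCm38 were used. Aligner and counter: not given in the sources used here. Genes carry NCBI IDs, of which 24375 of 24475 matched a symbol, and 15.3% of the Dchs1 estimated counts were not whole numbers. How reads were shared among near-identical copies (Cyp2c, Cyp4a, Acot, Hsd3b, Saa, Ces, Selenbp and Mup genes) is not stated, so values of single members are uncertain.

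Libraries were ranked by the deposited TPM of Lepr, and the 10 highest were set against the 10 lowest. Estimated counts were rounded, filtered (filterByExpr, minimum count 10, minimum total 15), and scaled by TMM. The quasi-likelihood F test of edgeR 4.0.16 (R 4.3.3) was then run, with Benjamini-Hochberg adjustment over all genes but Lepr at a threshold of 0.05. The standard error is the fold change over the root of F. DESeq2 1.42.0 and limma 3.58.1 on log2(TPM + 1), on which fold changes of low genes are understated, were alternatives. The test was checked on simulated data. Single values used permutation tests with 100000 resamples.

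The members, the 43 gene lists and the tests were chosen with earlier results of these data known. The lists hold 660 entries from 616 different genes, so a gene can count in more than 1 list. Genes named are, of those called with a mean of at least 1 CPM, the smallest p-values and largest changes, those called in both WT lines, up to 4 called members per list, those with the smallest p between lines, and those most like or unlike Lepr. Other members of the lists, and genes shared by several liver groups, were picked after their values were seen. A few genes that these rules or lists hold are not reported here.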

Additional observations from a re-analysis of the deposited data

Results flagged for a closer look

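In 88 groups of 10 values, 13 held 1 library set apart at an end. Its gap to the next, as a share of the group's range on the log2 scale, was above Dixon's critical value for 10 samples. Chance gives about 1 group in 20 where groups are independent and not chosen by their values. Most of these groups are levels of described genes in the same 20 libraries, many named for large changes. The count of 13 is therefore a description and is not to be set against that rate. Library 23 was the highest high-Lepr liver in 5 of the 13, with Cend1 at 19.4 TPM, Adcy1 at 5.97 TPM, Ddit4 at 259 TPM, Tdo2 at 4045 TPM and Cdkn1a at 155 TPM. Library 7 accounted for 3, being the lowest high-Lepr liver for Ces3a at 477 TPM and Cpt1a at 143 TPM, and having 37.6% of its counts in its 10 most abundant genes.

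Among low-Lepr livers, library 13 had 12706 TPM of Saa2 and the lowest Selenbp2, at 75.3 TPM. Library 25 had the highest Cend1, at 0.934 TPM, and the highest Cidec, at 24.9 TPM. Library 17 had the highest Ddit4, at 10.2 TPM. The cause of these values was not tested.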

How the results depend on the processing

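The Dchs1 WT count of 1233 was 436 with limma on log2(TPM + 1), 393 with a pseudocount of 0.1 and 313 with no filter on TPM. It was 804 with 15 against 15 libraries, 3531 with Lepr as a gradient over all 30, and 2061 for that gradient without library 23. It ran over 837 to 1507 when 1 library was left out. The Fat4 WT count of 5 was 65 with DESeq2, 54 with 5 against 5, 1394 with the gradient and 520 with the gradient without its top library. It was 1 with 15 against 15, with ranking by CPM and without libraries dominated by 10 genes, and 0 with no filter, with each limma fit, with library total as a covariate and without outlying libraries. It ran over 0 to 5 when 1 library was left out. The Dchs1 Het count of 432 was 791 with DESeq2, 1446 with the gradient and 177 without its top library. The Fat4 Het count of 2167 was 1292 with limma and 1733 without its top library. The difference between lines called 0 genes, and 1 with the gradient. Genes called in both WT lines were 4, or 55 with DESeq2, 44 with 5 against 5, and 0 with limma or 15 against 15. The cause was not tested. Saa2 reversed, to a log2 fold change of 0.047 with 15 against 15 (adjusted p = 0.987). The share of Dchs1 WT calls with the same sign in Fat4 WT livers was 92.7% to 98.7% over 15 settings. The fits without library 23, of dominated libraries and of the gradient without the top library were chosen after seeing the data. No paired analysis was possible because replicate numbers were given in accession order. Alternatives by stretch of library numbers were not run in Fat4 WT livers, which form 1 stretch.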

Other observations

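In Dchs1 WT livers high against low in Lepr, 9.93% of all genes tested were called in either direction, and the counts for other lists follow. Of 17 genes of bile acid synthesis and transport, 1 was higher and 4 lower, and of 15 targets of the xenobiotic receptors CAR and PXR, 1 was higher and 4 lower. Iron handling (14 tested) and metallothioneins with zinc transporters (6 tested) each had 1 lower, and autophagy genes (16 tested) had 2 lower. Of 8 MHC class II genes, 2 were lower. H2-DMa had a log2 fold change of -0.77, and -0.68 without library 23 (adjusted p = 0.0617). H2-DMb1 had -0.78, and -0.73 without library 23 (adjusted p = 0.0640). Each lost its call when any of 12 of the 20 libraries was left out, a different 12 for each gene.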
